A study of Danio rerio with 18 samples.

Results

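The collagen chain genes encode the proteins of the collagen fibres, networks and sheets of the extracellular matrix. They were taken as all gene symbols made of "col", a type number, "a" and a chain number. The rule matched 28 of 15268 genes in the table of expression values, of which 27 encode collagen chains. The remaining match, col4a3bpa, is a synonym of the ceramide transfer protein gene cert1a and was kept apart. RNA was sequenced from heart tissue of zebrafish of the TAB line, a hybrid of AB and Tubingen, after the tip of the ventricle had been cut off. The 3 groups are 0, 6 and 9 days post amputation (dpa), with 2 libraries each, 6 libraries in all, and amputation was common to all of them. The methods describe the source at all 3 time points as newly regenerated heart tissue, and the sample titles as regenerative cardiac cells. The labels give no age, sex, transgene or number of hearts per library, and no detail of what was dissected at 0 dpa. The replicates are called biological in the study's methods, so p-values measure the spread between these libraries.

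Collagen chains wind around each other into a rope-like helix. Fibrillar collagens pack into the load-bearing fibres of connective tissue, with type I as the main component and types V and XI as minor partners that set where and how thick fibres form. Type IV chains build the mesh of basement membranes, multiplexins lie at the border of basement membranes and stroma, and FACIT collagens (fibril-associated collagens with interrupted helices) sit on the surface of fibres. Short chain collagens of types VIII and X form open networks. In the zebrafish heart a collagen-rich matrix is laid down at the wound and later cleared as muscle grows back, with epicardium-derived fibroblasts as a main source.

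Of the 27 chains, 13 are fibrillar, 4 are FACIT chains (all of type IX), 3 are short chain network collagens, 2 are multiplexins, 1 is a basement membrane chain (col4a5) and 1 is a transmembrane chain (col17a1a). The last 3 belong to type XXVIII, a collagen that is placed in no large class here. All 27 symbols were found unchanged in RefSeq, where 60 symbols fit the same rule. Type IV chains other than col4a5, beaded filament chains of type VI and anchoring fibril chains of type VII were not among the matched symbols. Neither were FACIT chains of types XII and XIV or the fibrillar chain col5a1, so these genes could not be described. Expression is given in FPKM, a fragment count scaled for the length of the transcript and the size of the library, so levels can be set side by side between chains. FPKM does not carry the number of reads behind a value, so no counting interval is given for single values. The summed FPKM of a library lay between 803421 and 1330111.

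Most chains were scarce. Over the 6 libraries 16 chains reached an FPKM of 1 in at least 1 library, 11 stayed below 1 throughout, and col28a1a was listed at 0 in all. Of all 15268 genes in the table, 11404 reached 1, 3864 stayed below 1 and 1520 were at 0 throughout. An FPKM of at least 1 was reached by 6 chains in each library of 0 dpa, by 12 in each of 6 dpa, and by 10 and 12 in those of 9 dpa. Only 5 chains were at 3 FPKM or more in every library: col1a1a, col1a1b, col1a2, col5a2a and col18a1a. Over all genes 7334 of 15268 were. The heat map of log2 values shows this division between a few abundant fibrillar chains and many that were close to 0.

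**Figure D1:**
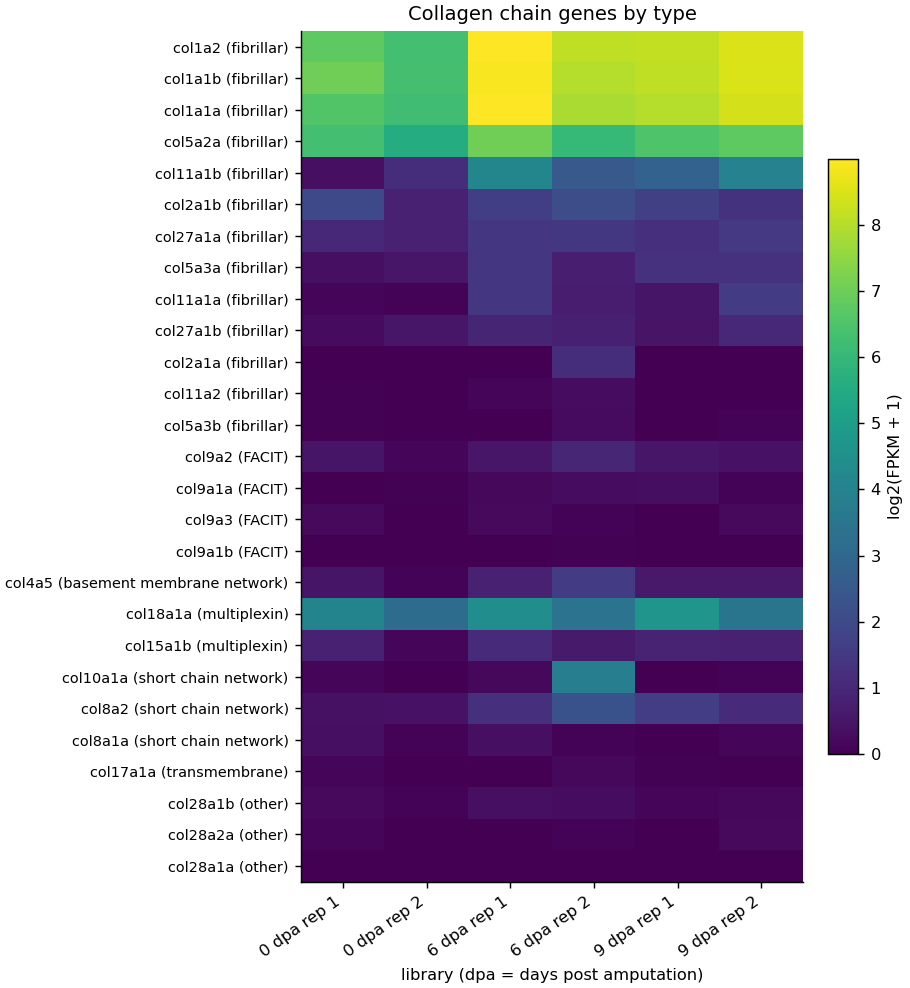
Heat map of log2(FPKM + 1) for the 27 collagen chain genes (rows, grouped by type and ordered by mean FPKM within a type) in the 6 libraries (columns, 2 each at 0, 6 and 9 dpa). The 3 type I chains form the bright block at the top, brighter in the 4 libraries of 6 and 9 dpa, and col10a1a stands out in a single library, 6 dpa replicate 2.

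The summed FPKM of the 27 chains was 431.6 and 292.1 in the replicates at 0 dpa, 1674 and 868.0 at 6 dpa, then 954.8 and 1213 at 9 dpa. Both libraries of 6 dpa and both of 9 dpa lay above both of 0 dpa, and the libraries of 6 and 9 dpa overlapped. As a share of all FPKM in the library, collagen chains held 0.0324 and 0.0319% at 0 dpa, 0.199 and 0.108% at 6 dpa, then 0.0904 and 0.127% at 9 dpa. Fibrillar chains made up between 95.7 and 98.9% of this sum in each library. That is a share of the 27 chains only, since most type IV and all type VI chains were not among the matched symbols. Type I alone held 76.6 and 79.7% of the collagen FPKM at 0 dpa, 89.2 and 87.4% at 6 dpa, then 86.3 and 88.1% at 9 dpa, with no overlap between 0 dpa and the later time points. With 2 libraries per time point only 3 divisions of the libraries exist, so an exact permutation p cannot fall under 0.3333, and sums and shares are given with no test.

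Type I collagen of zebrafish is made from the chains of col1a1a, col1a1b (also named alpha3(I)) and col1a2. These were the most abundant collagen chains at every time point, and they rose together after amputation. Col1a2 had 106.7 and 78.1 FPKM at 0 dpa, 509.2 and 277.7 at 6 dpa, then 287.8 and 370.4 at 9 dpa. Col1a1a had 93.6 and 74.1, then 500.3 and 228.0, then 254.9 and 342.7. Col1a1b had 130.5 and 80.7, then 484.0 and 253.3, then 281.3 and 355.3. For all 3 genes the lowest library of 6 or 9 dpa was above the highest of 0 dpa, and the highest library was 6 dpa replicate 1.

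Time points were compared with limma on log2(FPKM + 1) in a fit of all 6 libraries, over the 9363 genes that averaged 3 FPKM or more at a time point. A gene was called different where it met the study's criteria: a fold change of 1.5 or more, an unadjusted P under 0.05 and a mean of 3 FPKM or more in a compared group. P-values adjusted by Benjamini-Hochberg over all genes tested are given beside this. Between 6 and 0 dpa col1a2 went from 92.4 ± 20.3 (SD, n = 2) to 393.5 ± 163.6, 4.09-fold on the scale of the fit, with a log2 difference of 2.03 (standard error 0.38, limma adjusted p = 0.0658). Col1a1a changed by 2.01 (standard error 0.42, adjusted p = 0.0827 from limma) and col1a1b by 1.76 (standard error 0.41, adjusted p = 0.102 from limma). Between 9 and 0 dpa the log2 differences were 1.83 for col1a2 (limma adjusted p = 0.127), 1.82 for col1a1a (limma adjusted p = 0.155) and 1.61 for col1a1b (limma adjusted p = 0.186). All 3 chains met the study's criteria in both comparisons, and none passed the adjusted threshold in this fit. Both comparisons use the same 0 dpa libraries. The 3 chains met the criteria with any of the 6 libraries left out, with log2 differences for col1a2 between 1.59 (without 6 dpa replicate 1) and 2.47 (without 6 dpa replicate 2) at 6 dpa.

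**Figure D2:**
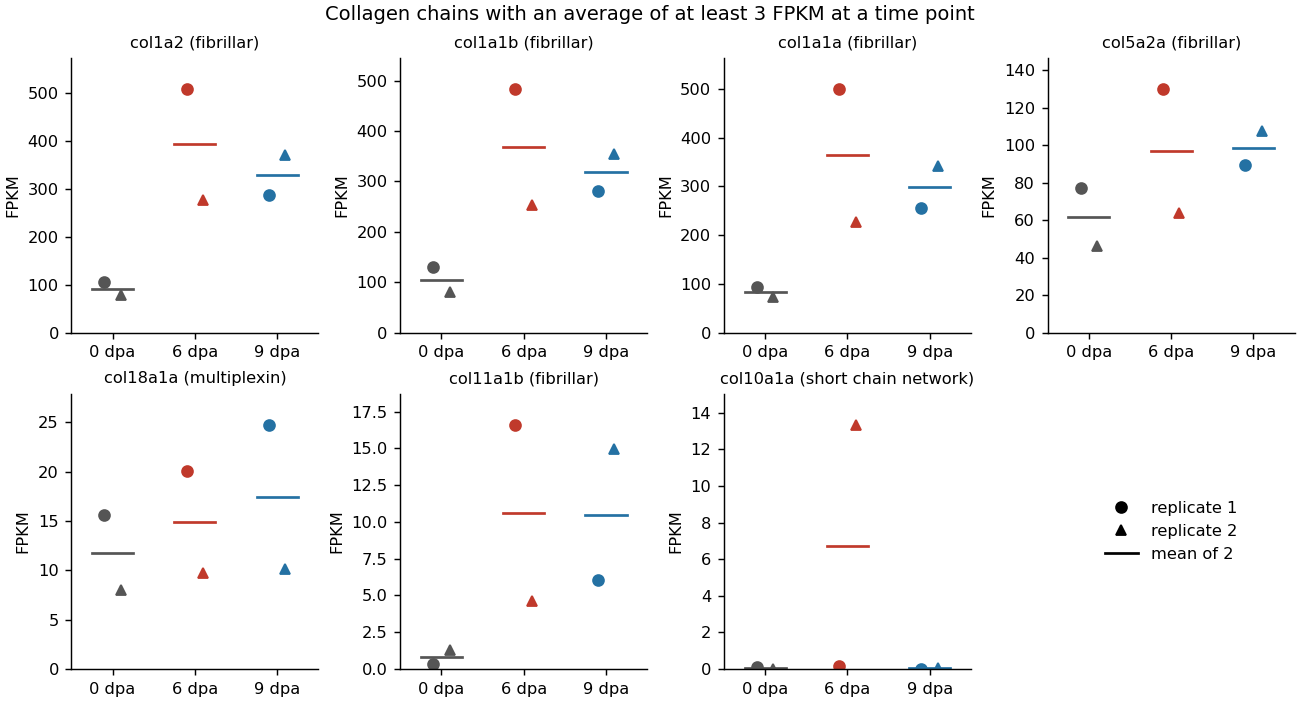
FPKM (vertical axis, linear and starting at 0) of the 7 chains that averaged 3 FPKM or more at a time point, by time point (horizontal axis), with replicate 1 as a circle, replicate 2 as a triangle and the mean of both as a line. The type I chains and col11a1b have all 4 later libraries above both libraries of 0 dpa, col18a1a overlaps between all time points, and col10a1a is at 13.3 in 1 library and at most 0.134 in the others.

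Type V and type XI chains are found within fibres of type I collagen or in cartilage fibres, and both types help to start fibre assembly. Col5a2a, an alpha2 chain of type V, had 77.4 and 46.5 FPKM at 0 dpa, 130.3 and 64.0 at 6 dpa, then 89.8 and 107.7 at 9 dpa. The groups of 0 and 6 dpa overlapped, and both libraries of 9 dpa were above both of 0 dpa. Its log2 difference was 0.60 at 6 dpa (95% interval -0.37 to 1.57, limma adjusted p = 0.532) and 0.70 at 9 dpa (95% interval -0.27 to 1.67, limma adjusted p = 0.544), and it did not meet the criteria. It met them without 6 dpa replicate 2 (log2 difference 1.104 at 6 dpa) and without 0 dpa replicate 1 (1.06 at 9 dpa).

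Col11a1b, an alpha1 chain of type XI, was nearly silent at 0 dpa, with an FPKM of 0.305 and 1.28. It had 16.6 and 4.64 at 6 dpa, then 6.05 and 14.9 at 9 dpa. Every later library was above both of 0 dpa, and the replicates of a time point differed by more than the means of 6 and 9 dpa did. The log2 difference was 2.53 at 6 dpa (standard error 0.61, limma adjusted p = 0.113) and 2.62 at 9 dpa (standard error 0.61, limma adjusted p = 0.162), and both met the study's criteria. Its paralog col11a1a, too low to be fitted, had 0.129 and 0.0699, then 1.71 and 0.618, then 0.427 and 2.05, and all later libraries were above both of 0 dpa. Its highest library was 9 dpa replicate 2, while that of col11a1b was 6 dpa replicate 1.

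The other fibrillar chains had FPKM values of at most 3.41. Col5a3a, of type V, had 0.307 and 0.443 at 0 dpa, 1.69 and 0.679 at 6 dpa, then 1.41 and 1.46 at 9 dpa, and col27a1a, of type XXVII, had 0.991 and 0.771, then 1.69 and 1.78, then 1.40 and 1.83. Both were higher in all later libraries than at 0 dpa. Col2a1b, a type II chain, had 2.93 and 0.779, then 2.201 and 3.41, then 2.23 and 1.47, and its groups overlapped. Type II is the main collagen of cartilage, and the other type II gene, col2a1a, reached 1.26 FPKM in 6 dpa replicate 2 and was listed at 0 in the other 5 libraries.

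By the study's criteria 4 chains were higher at 6 than at 0 dpa (col1a1a, col1a1b, col1a2 and col11a1b) out of 7 tested, and 0 were lower. Over all 9275 genes tested 7.86% were called higher and 7.51% lower. At 9 dpa the same 4 chains were higher than at 0 dpa out of 6 tested, and 0 were lower, beside 6.82% and 5.72% of 9015 genes. With the adjusted p-value 0 chains remained in either comparison, beside 0.712% and 0.366% of genes. Col11a1b and col10a1a entered the fit only through the time points where they were high, so a count over the fitted chains favours differences. Of the 5 chains at 3 FPKM or more in every library, the type I genes were called and col5a2a and col18a1a were not.

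Between 9 and 6 dpa 0 of 7 chains met the criteria, beside 3.41% of 9157 genes (1.99% higher, 1.42% lower, and 0.0328% with the adjusted p-value), and 0 had an unadjusted P under 0.05, the lowest being 0.130 for col10a1a by limma. The log2 difference of col1a2 was -0.20, with a 95% interval from -1.09 to 0.68. Its sign turned with the library left out, since it was -0.64 when 6 dpa replicate 2 was omitted and 0.23 when 6 dpa replicate 1 was. A change of 1.5-fold either way lies within the intervals of the fitted chains, so these data do not show whether collagen levels at 9 dpa had moved from those at 6 dpa.

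**Figure D3:**
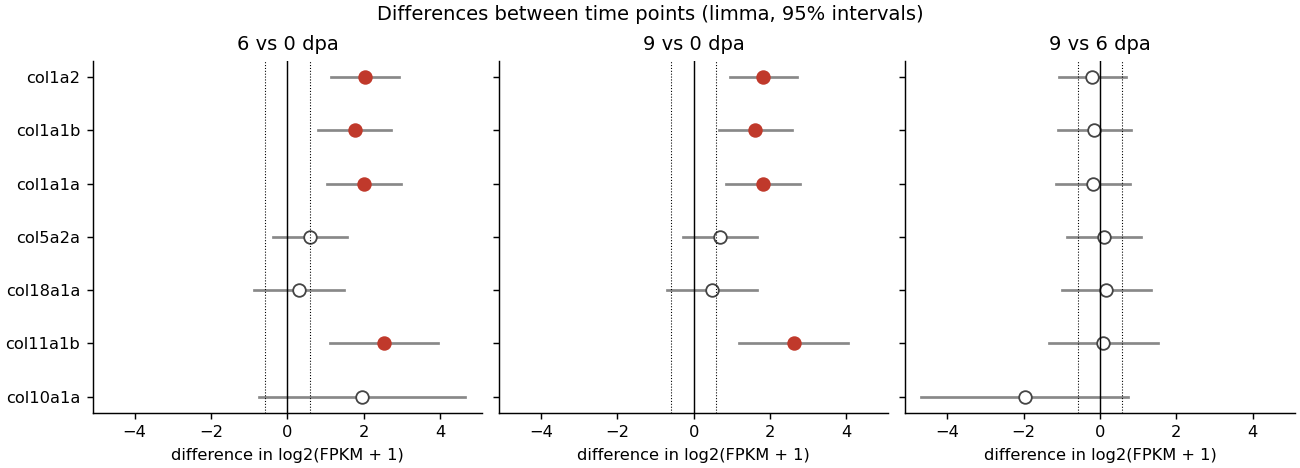
Difference in log2(FPKM + 1) between time points (horizontal axis) for the fitted chains (vertical axis), with 95% intervals from limma as lines. Filled points met the study's criteria, and dotted lines mark a 1.5-fold change. Type I chains and col11a1b are filled in both comparisons with 0 dpa, at 1.61 or more, and no point is filled between 9 and 6 dpa.

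Whether a chain moved can also be described for all 26 chains above 0 in any library, without a minimum level, by asking if the libraries of 2 time points overlap. At 6 dpa 15 of 26 chains were above both libraries of 0 dpa and 0 were below, beside 22.7% and 18% of the 13748 genes above 0. At 9 dpa the numbers were 11 and 0, beside 19.4% and 17.4%. The median log2 difference over the 26 chains was 0.48 at 6 dpa and 0.25 at 9 dpa, beside 0.04 and 0 over the 13748 genes. Of the 15 chains 9 were fibrillar, out of 13 of that class, and the multiplexins and col17a1a were not among them. Of these chains col11a2, col28a1b, col9a1a and col9a2 stayed below 1 FPKM in all libraries. For col10a1a the nearest libraries were 0.134 FPKM at 6 dpa and 0.0884 at 0 dpa. Between 9 and 6 dpa 0 chains were wholly higher, beside 15.1% of genes. Wholly lower were 4 chains (col10a1a, col11a2, col28a1b and col4a5), beside 18.3%. Col11a2 and col28a1b had at most 0.235 and 0.291 FPKM in any library. For col10a1a the nearest libraries were 0.134 at 6 dpa and 0.0542 at 9 dpa.

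Ratios of chains within a library do not depend on how libraries are scaled to each other. The ratio of col1a2 to col1a1a FPKM stayed between 1.02 and 1.22 in the 6 libraries and that of col1a1b to col1a1a between 0.967 and 1.39, while col1a1a itself ranged from 74.1 to 500.3 FPKM. Col1a1a and col1a1b are paralogs, and how the authors' quantification divided reads shared by both is not known. The ratio of col5a2a to col1a2 was 0.726 and 0.596 at 0 dpa, 0.256 and 0.230 at 6 dpa, then 0.312 and 0.291 at 9 dpa. The 3 time points did not overlap, with a mean log2 change of -1.44 from 0 to 6 dpa and of -1.13 from 0 to 9 dpa. An exact permutation test, two-sided, gave p = 0.3333 for each, the smallest that 2 libraries against 2 allow.

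The ratio between both minor fibrillar chains differed between time points too. The ratio of col11a1b to col5a2a was 0.00394 and 0.0276 at 0 dpa, 0.128 and 0.0725 at 6 dpa, then 0.0674 and 0.139 at 9 dpa. Both later time points lay above 0 dpa (exact permutation p = 0.3333 in each comparison, the smallest possible), and they overlapped with each other. At 0 dpa this ratio rests on FPKM values of col11a1b near 1 or below.

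**Figure D4:**
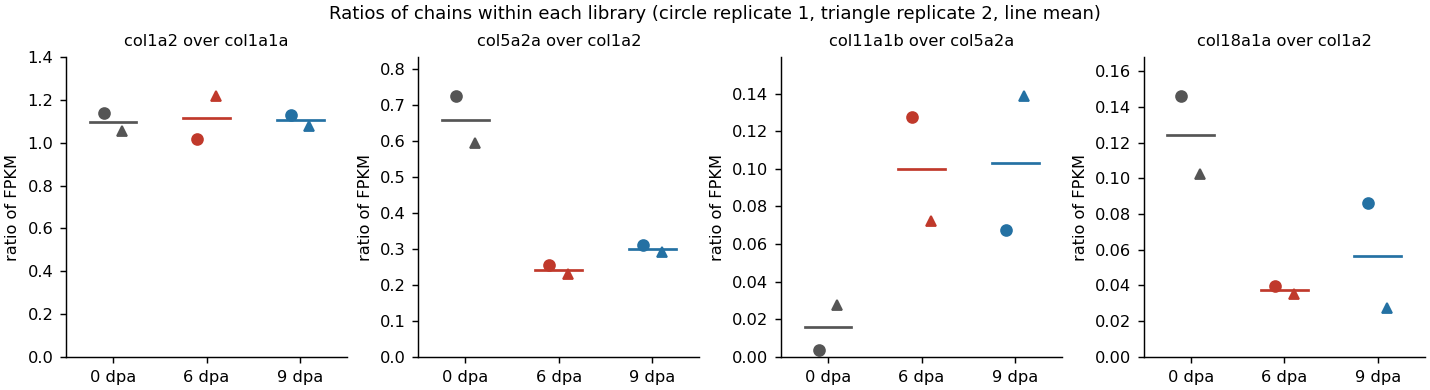
Ratio of the FPKM of 2 chains in each library (vertical axis, linear from 0) by time point (horizontal axis), with the mean of 2 libraries as a line. The ratio of col1a2 to col1a1a stays between 1.02 and 1.22, that of col5a2a to col1a2 is highest in both libraries of 0 dpa, at 0.596 or more, and that of col11a1b to col5a2a is lowest there.

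Of type IV only col4a5 was among the matched symbols, so the main basement membrane chains are not described. Among col4a5 and the 2 multiplexins col18a1a alone was abundant enough to be fitted. It encodes the type XVIII chain, whose C-terminal fragment is endostatin, and had 15.6 and 7.99 FPKM at 0 dpa, 20.1 and 9.77 at 6 dpa, then 24.8 and 10.2 at 9 dpa. Replicate 1 was above replicate 2 at every time point, by more than the time points' means were apart, and all groups overlapped. The log2 differences from 0 dpa were 0.30 (95% interval -0.87 to 1.48, limma adjusted p = 0.805) and 0.47 (95% interval -0.70 to 1.65, limma adjusted p = 0.760). Against col1a2 its ratio was lower in all later libraries (0.0274 to 0.0861) than at 0 dpa (0.146 and 0.102).

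Col15a1b, the other multiplexin, had an FPKM of 0.793 and 0.106, then 1.16 and 0.585, then 0.878 and 0.756. Col4a5, a type IV chain of specialised basement membranes, had 0.420 and 0.0585 at 0 dpa, 0.787 and 2.04 at 6 dpa, then 0.543 and 0.525 at 9 dpa. Its groups did not overlap in any of the 3 comparisons, but it was below the minimum for a test. Col17a1a, a membrane-spanning collagen known from the anchoring of skin epithelium, had at most 0.138.

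Among the short chain collagens col10a1a was high in 1 library only. Col10a1a, a type X chain known from hypertrophic cartilage and from bone-forming cells of fish, reached 13.3 FPKM in 6 dpa replicate 2, beside 0.134 in 6 dpa replicate 1 and at most 0.0884 at 0 and 9 dpa. That library held 98.0% of its FPKM over the 6 libraries. The log2 difference between 6 and 0 dpa was 1.95, with a 95% interval from -0.75 to 4.66 (limma adjusted p = 0.467). Without 6 dpa replicate 2 the gene fell below the minimum for a test, and without 6 dpa replicate 1, with a single library at 6 dpa, the difference was 3.78. Col8a2, a type VIII chain, had 0.3327 and 0.342 at 0 dpa, 1.32 and 3.84 at 6 dpa, then 2.08 and 1.13 at 9 dpa, higher in all later libraries than at 0 dpa. Of the type IX chains, which coat type II fibres in cartilage, col9a2 was the highest and reached 0.939, also in 6 dpa replicate 2. That library was the highest of the 6 for 10 of the 26 chains, beside 15.1% of all genes above 0, and 5 of these 10 chains stayed below 1 FPKM. The other library of 6 dpa, replicate 1, was the highest for 9 chains, beside 18.8% of genes. Those included the type I chains, col5a2a and col11a1b.

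Some markers of other tissues were highest in the same library, and others were not. Epcam, an adhesion protein of epithelia, reached 60.7 FPKM in 6 dpa replicate 2 and had at most 3.20 elsewhere, and cdh1 had 13.9 there and at most 1.35 elsewhere. Ucmaa, a cartilage matrix gene, had 55.6 there and between 3.29 and 19.3 in the other libraries. Of the other cartilage and bone genes sox9a (7.14), spp1 (1.60) and cnmd (0.730) also had their highest FPKM there, while sp7 was at 0.216 and bglap was listed at 0. Matn4 was highest in 0 dpa replicate 1, at 60.2 beside 19.1 in 6 dpa replicate 2, and so was phex, at 4.24 beside 3.15. Matn1 was highest in 0 dpa replicate 2, at 1.13 beside 0.0745. Of 10 cartilage and bone markers 9 are in the table, with summed FPKM of 76.3 and 36.0 at 0 dpa, 40.9 and 87.6 at 6 dpa, then 38.4 and 40.0 at 9 dpa, and 7 of them were higher in replicate 2 than in replicate 1 at 6 dpa. Of 10 skin epithelium markers other than keratins 9 are in the table, and 7 of these were likewise higher in replicate 2. So were 6 of 7 liver and 6 of 9 skeletal muscle genes. Several of the genes in these counts were near 0 in both replicates of 6 dpa. Examples are the liver genes fga (0.191 and 0.447) and ambp (0.130 and 0.502) and the muscle gene myhz2 (0.230 and 1.09). Lower in replicate 2 were the epithelial genes perp (59.5, beside 74.7 in replicate 1) and dsc2l (17.3 beside 22.8). The abundant liver gene tfa was also lower (190.7 beside 506.2), as were the muscle genes ckma (1963 beside 2481) and acta1b (1352 beside 2393). The summed FPKM of the liver and muscle lists was lower in replicate 2 as well. In both replicates most of the liver sum was tfa, and most of the muscle sum was ckma and acta1b. Both of these muscle genes had 1308 FPKM or more in every library. Over all fitted genes replicate 1 was above replicate 2 by a median log2 difference of 0.13. Fabp10a, a fatty acid binding protein of liver, reached 37.7 FPKM in 6 dpa replicate 2 and at most 4.43 elsewhere. Mylpfa, a myosin light chain of fast muscle, reached 34.2 in that library and at most 12.2 elsewhere. The part of such tissues in the values of col10a1a and col2a1a was not tested. The type I chains were lower in this library than in 6 dpa replicate 1.

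In these bulk libraries more cells of a type and more RNA per cell cannot be told apart. Fibroblast markers other than collagens were set beside the type I chains, a comparison that does not separate these either. Of 9 listed genes 7 are in the table, and their summed FPKM was 554.7 and 488.3 at 0 dpa, 1973 and 1046 at 6 dpa, then 1081 and 1874 at 9 dpa. The summed FPKM of the 3 type I chains, 330.8 and 232.9, then 1493 and 759.1, then 824.1 and 1068, put the 6 libraries in the same order, from 0 dpa replicate 2 to 6 dpa replicate 1. In every library fn1b and sparc were the highest of the 7 genes. By the study's criteria 5 of 7 fibroblast markers (dcn, fn1b, lum, postnb and sparc) were higher at 6 and at 9 dpa than at 0 dpa, beside 7.86% and 6.82% of all genes tested. Pdgfra and loxa were called in neither comparison. Pdgfra had 14.9 and 10.3 FPKM at 0 dpa, 11.6 and 13.8 at 6 dpa, then 11.2 and 12.1 at 9 dpa. Loxa had 11.5 and 9.53, then 11.1 and 8.10, then 7.03 and 9.73. Of 6 epicardial markers tbx18, tcf21 and wt1a were called higher at 6 dpa and tbx18 at 9 dpa, beside the same 7.86% and 6.82%. Wt1b, aldh1a2 and gata5 were called in neither comparison. The summed FPKM of the epicardial markers was 386.5 and 319.9 at 0 dpa, 411.4 and 307.7 at 6 dpa, then 303.9 and 362.8 at 9 dpa. This sum, most of it from gata5 and aldh1a2, overlapped between all time points. Lower at 6 dpa were the endothelial genes egfl7 and pecam1, among 7 tested, and the cardiomyocyte gene myl7, among 9 tested. In the lists of other tissues and cells, matn4, acta1b and perp were also called lower at 6 dpa. Ucmaa, epcam, tfa, mpx, mylpfa, pvalb1 and tnnt3b of those lists were called higher, beside the same 7.86% of all genes. Over all genes tested 7.51% were called lower, and the count of cardiomyocyte genes is near that share. Markers of macrophages and neutrophils summed to 177.5 and 743.9 FPKM in the replicates of 0 dpa and to between 215.2 and 488.1 in the later libraries. The cardiomyocyte markers, 9 of 10 in the table and none at 0, summed to 99370 and 48844 at 0 dpa, 50864 and 42326 at 6 dpa, then 71664 and 53809 at 9 dpa. All 9 were present in every library, as the label of heart tissue requires. The part of cell composition in the rise of type I collagen was not tested.

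**Figure D5:**
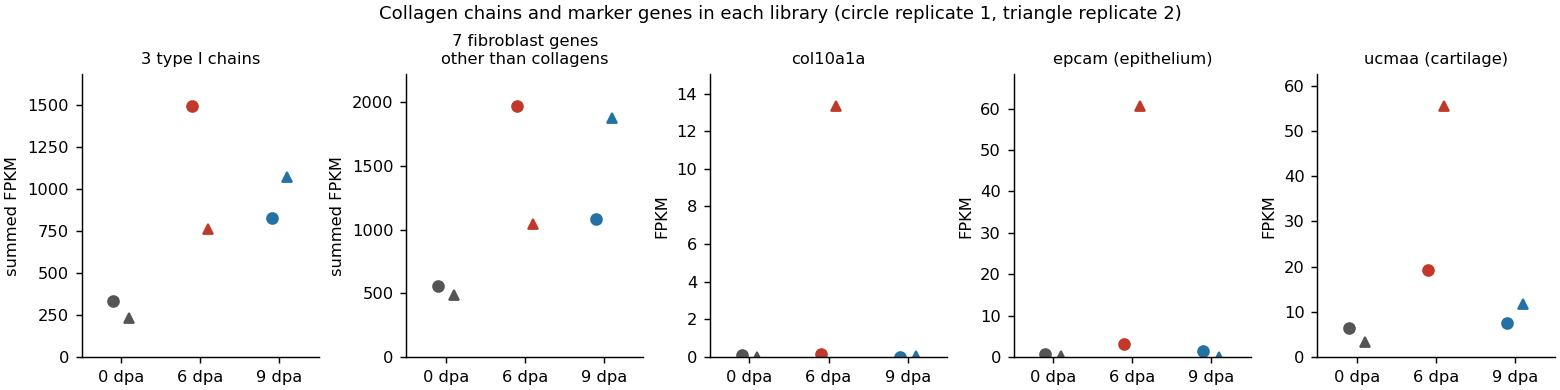
Levels in each library (vertical axes, FPKM or summed FPKM, linear from 0) by time point, for the 3 type I chains, 7 fibroblast genes other than collagens, col10a1a, epcam and ucmaa. The first 2 panels order the libraries alike, and the last 3 have their highest value in 6 dpa replicate 2, at 13.3, 60.7 and 55.6 FPKM.

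Genes that process collagen were called in both directions. Of 35 listed symbols of collagen processing 23 are in the table and 19 were tested between 6 and 0 dpa, with 4 called higher (loxl2b, loxl3b, plod2 and serpinh1b) and 1 lower (loxl2a), and a median log2 difference of 0.11, beside 7.86% of all genes higher and 7.51% lower. Plod2, a lysyl hydroxylase that prepares collagen for cross-linking, had 11.6 and 15.9 FPKM at 0 dpa, 47.4 and 24.0 at 6 dpa, then 27.5 and 43.1 at 9 dpa, with all later libraries above 0 dpa. The paralogous cross-linking oxidases loxl2a and loxl2b were called in opposite directions. Loxl2a had 25.2 and 28.9 at 0 dpa, 16.3 and 7.96 at 6 dpa, then 8.82 and 19.04 at 9 dpa, and loxl2b had 12.5 and 9.12, then 40.8 and 20.6, then 20.1 and 33.2. At 9 dpa 17 were tested, and loxl2b, loxl3b, plod2 and plod3 were called higher and loxl2a lower than at 0 dpa. Over all genes tested these shares were 6.82% and 5.72%.

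Among proteoglycans bound to collagen fibres 4 were tested, and dcn (decorin) and lum (lumican) were called higher at both time points. Dcn had 97.0 and 113.6 FPKM at 0 dpa, 308.7 and 170.6 at 6 dpa, then 188.5 and 236.3 at 9 dpa. Of 17 other matrix genes 12 are in the table and 11 were tested, and 7 of them (fn1a, fn1b, lamb1a, lamc1, nid1b, postnb and sparc) were called higher at 6 and at 9 dpa, with medians of 1.02 and 1.05. Of 14 receptor genes 3 are in the table, 2 were tested, and itgb1a was called higher at 6 dpa. Over all genes tested 7.86% were called higher at 6 dpa and 6.82% at 9 dpa, with median log2 differences of -0.0028 and -0.028. Dcn, lum, fn1b, postnb and sparc are the same genes that were counted above as fibroblast markers. Between 9 and 6 dpa 1 gene of these lists, serpinh1b, was called, as lower at 9 dpa, beside 1.42% of all genes. None of the genes of these lists passed the adjusted p-value in any comparison.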

How the data were processed

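RNA was sequenced from heart tissue at 0, 6 and 9 dpa in 2 libraries per time point. Per the sources used here, the authors ran STAR against danRer10 and then made the deposited FPKM values with Cufflinks according to the methods, while the submitters' processing notes name Cuffdiff. The versions of STAR, Cufflinks and Cuffdiff and the gene annotation are not given in the sources used here, and replicates were not pooled. FPKM values were used as deposited. The 6 ChIP libraries for H3K9ac and H3K9me3 and the 6 libraries of the PAC2 cell line were not analysed here.

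The study's criteria were applied with limma 3.58.1 (R 4.3.3) on log2(FPKM + 1) in a model of time point alone, with a prior with a trend over expression and 3 residual degrees of freedom. Limma took the place of the authors' edgeR, which needs counts. A fold change on this scale understates the change of low genes. Full statistics went to members that met the criteria, at most the 8 largest, and to the 2 members of each type with the highest mean, where fitted. Members, types and lists were chosen with earlier results of these data known. The fit was tested on simulated data with known changes. The alternatives were a pseudocount of 0.1, no minimum or a minimum of 1 FPKM, median-ratio scaling, compared groups only and a replicate block. Others were no trend, the adjusted p-value, leaving out each library, and rescaling to equal summed FPKM without 13 haemoglobin genes. Symbols were matched to RefSeq (GRCz12tu), of another build than the files, so no coordinates or sequences are given. Tables and figures were made with Python 3.11.15, pandas 2.3.3, numpy 2.4.6, scipy 1.17.1 and matplotlib 3.10.9.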

Additional observations from a re-analysis of the deposited data

How the results depend on the processing

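The type I chains and col11a1b met the study's criteria in both comparisons with 0 dpa under each alternative fit and with any library left out. In the fit of all libraries with FPKM as deposited, the number of chains with an adjusted p-value under 0.05 was 0 at 6 dpa and 0 at 9 dpa. Col1a2 at 6 dpa passed it only after rescaling without haemoglobin (adjusted p = 0.0407 by limma). Its adjusted p by limma was up to 0.150 in the other fits with 2 libraries in each group. With each library left out in turn, limma called between 4 and 6 chains at 6 dpa, between 4 and 5 at 9 dpa and between 0 and 2 between 9 and 6 dpa, where the group with a single library is assumed to vary like the others. The 2 were col10a1a and col8a2, without 6 dpa replicate 1. The median log2 difference over the fitted chains, 1.95 at 6 dpa (the value of col10a1a itself) and 1.71 at 9 dpa in the fit of all libraries, then lay between 1.44 and 2.35 at 6 dpa, 1.44 and 1.97 at 9 dpa, and -0.63 and 0.32 for 9 against 6 dpa. A lower minimum brings in scarce chains, and the median became 0.93 at 6 dpa and 0.92 at 9 dpa with a minimum of 1 FPKM, and 0.48 and 0.25 with none. The rescaling without haemoglobin left out these genes and also brought every library to the same summed FPKM. Scaling to equal sums with haemoglobin kept was not run, so the effects of both steps cannot be told apart. This rescaling shifted the all-gene median to 0.31 at 6 dpa, 0.13 at 9 dpa and -0.17 between 9 and 6 dpa. It called 1715 of 2061 genes higher at 6 dpa (729 of 1426 without it), 1016 of 1357 at 9 dpa (615 of 1131) and 112 of 346 between 9 and 6 dpa (182 of 312), and col5a2a was then called higher at 6 and 9 dpa. Median-ratio scaling called 282 of 380 higher between 9 and 6 dpa. The collagen share at 0 dpa was 0.0322% on average, 0.0360% without haemoglobin in the sum and 0.0353% over genes above 0 in every library.

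Replicate differences were nearly uncorrelated between time points over all fitted genes, which does not settle whether libraries were prepared in pairs. Over 9363 genes the differences between replicates correlated with r = -0.085 between 0 and 6 dpa, 0.09 for 0 and 9 dpa, and 0.005 for 6 and 9 dpa. With a replicate block 4, 4 and 0 chains met the criteria, as without it.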

Other observations

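Replicates differed in whole groups of chains. At 0 and at 6 dpa 6 of the 7 fitted chains were higher in replicate 1, with median log2 differences between the replicates of 0.45 and 0.97, and at 9 dpa 1 of 7 was, with a median of -0.34. Over all fitted genes these medians were 0.24, 0.13 and 0.16. At 6 dpa the exception was col10a1a, at 9 dpa col18a1a and at 0 dpa col11a1b.

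Col4a3bpa, which the naming rule matched although it encodes a ceramide transfer protein and no collagen, had 2.60 and 3.08 FPKM at 0 dpa, 5.81 and 4.17 at 6 dpa, then 3.36 and 4.35 at 9 dpa. It met the criteria in no comparison, with a log2 difference of 0.63 at 6 dpa (limma adjusted p = 0.386).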
